A study of Mus musculus with 8 samples.

Results

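The Reg family is a group of small secreted proteins with a C-type lectin fold, and 6 of its mouse genes (Reg1, Reg2, Reg3a, Reg3b, Reg3g and Reg4) were followed through single-cell RNA counts of pancreatic ductal adenocarcinoma. The 6 genes were chosen by their symbols, among 27775 gene rows in each table, with earlier results of these same tables in view, so their levels are a description and carry no test. Cells came from 2 tumors of KPC mice, 1 labelled medium size and 1 labelled large size, both from untreated control animals whose age is not given in the labels. In this genetic model Cre under the pancreatic Pdx1 promoter (Pdx-1-Cre) switches on the engineered alleles, so cells outside that lineage carry them unrecombined. Tumors were dissociated into cells for 10x Genomics Chromium 3′ v2 libraries, and the 4 technical replicates of a tumor are pooled in 1 table. Each tumor size is therefore 1 sample, and intervals below cover counting error only.

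Reg1 and Reg2 encode the pancreatic stone proteins, which acinar cells of the normal pancreas secrete. Reg3b and Reg3g encode gut lectins that bind bacterial cell walls, and Reg3a is a further member of that branch. Reg4 is known from secretory cells of the intestine. Several Reg genes are raised in pancreatitis and gut inflammation through cytokines of the interleukin 6 and interleukin 22 type, which signal through the transcription factor Stat3.

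All of the 6 genes but Reg4 lie together on chromosome 6. In the GENCODE M21 annotation of GRCm38, the build the submitters' processing notes name as mm10, the order is Reg3b (chr6:78370657-78373466, plus strand), Reg3d (not among the 6), Reg3a (chr6:78380709-78383827, plus), Reg2 (chr6:78395623-78408106, plus), Reg1 (chr6:78422711-78428667, plus) and Reg3g (chr6:78466269-78468872, minus). This stretch of 98216 bases holds 6 protein-coding genes and no other annotated gene. Reg4 lies apart, at chr3:98222156-98236748 on the plus strand. Reg3a, Reg2 and Reg3d, which were at or near 0 in both tumors, thus sit between the abundant Reg3b and Reg1.

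The stretches before the start sites are shown for the 3 abundant genes and for the 2 near-silent members among them, whose counts were orders of magnitude lower. Over the 250 bases before the start, Reg1 and Reg2 share 69.0% of aligned bases and Reg3a and Reg3b 69.4%. Pairs with Reg4, on another chromosome, share 59.5% to 65.0%. Sequences are from RefSeq (GRCm38.p6), read 5′ to 3′ on the gene's own strand from 150 bases before the RefSeq start. Each ends with the TATA letters nearest the start, or 22 bases before the start for Reg3a, which has none. Capitals mark TATAAA or the Stat motif TTCNNNGAA, searched on both strands over 250 bases before the start. The RefSeq starts of Reg1 (78425983), Reg2 (78405155) and Reg3b (78370885) lie inside the GENCODE genes given above, and so do their stretches.
Reg1, chr6:78425833-78425958, plus: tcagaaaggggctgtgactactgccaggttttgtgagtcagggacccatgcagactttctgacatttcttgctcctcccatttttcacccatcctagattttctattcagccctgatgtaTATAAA
Reg2, chr6:78405005-78405130, plus: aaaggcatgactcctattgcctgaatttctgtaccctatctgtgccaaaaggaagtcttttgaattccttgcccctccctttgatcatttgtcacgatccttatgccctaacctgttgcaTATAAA
Reg3b, chr6:78370735-78370861, plus: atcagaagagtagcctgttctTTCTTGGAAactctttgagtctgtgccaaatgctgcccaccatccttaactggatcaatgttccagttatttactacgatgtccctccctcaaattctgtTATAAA
Reg3g, chr6:78468896-78469024, minus: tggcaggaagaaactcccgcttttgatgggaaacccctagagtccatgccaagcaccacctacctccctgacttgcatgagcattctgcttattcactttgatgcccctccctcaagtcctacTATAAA
Reg3a, chr6:78380559-78380687, plus: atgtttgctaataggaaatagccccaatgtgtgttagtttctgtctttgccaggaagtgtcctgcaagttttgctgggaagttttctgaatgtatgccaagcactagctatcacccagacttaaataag
Reg3b was the 1 gene of these 5 with a match to the Stat motif, 129 bases before its start. Reg3d, with 0 UMIs in both tumors (a limit of 3 counts is 0.148 CPM in the medium and 1.34 CPM in the large tumor), also had a match, 238 bases before its start. Over all 32851 promoters of the table, 7.02% hold the motif in this window. TATAAA stood 30 bases before the start of both Reg1 and Reg2, 29 before Reg3b and 27 before Reg3g, against 12.4% of all promoters with these letters anywhere in the window. Reg3g held a second match on the opposite strand, 161 bases before its start, outside the stretch shown. Reg3a, Reg4 and Reg3d had no TATAAA in the window, and Reg4 had no Stat motif either. Reg1 and Reg2, which share 79.7% of aligned transcript bases and these TATA letters, differed in counts and not in either motif.

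The members are similar enough that misassigned reads had to be considered. Reg3a and Reg3b share 75.9% of aligned transcript bases and Reg3b and Reg3g 74.4%. No run of 98 bases in the last 500 bases of any member's transcripts occurs in a transcript of another gene, so reads of that length without errors have 1 source among annotated transcripts. None of the 6 genes overlaps another annotated gene.

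The medium tumor has 20301669 unique molecular identifiers (UMIs, each a captured mRNA molecule) in 2812 cells, with a median of 5456.5 per cell. The large tumor is much shallower, with 2239012 UMIs in 1533 cells and a median of 1037.0. The tables share 5 cell barcodes. Each tumor was clustered on its own without the 6 genes, giving 14 clusters in the medium and 11 in the large tumor. Clusters were named from marker lists, and 2328 medium and 938 large cells were epithelial-like. No cluster of either tumor had more than 1 acinar marker. Levels are UMIs per 1000000 UMIs of the cells summed (CPM), without scaling by gene length, since 3′ counting takes 1 tag per molecule. Capture per gene was not measured, so levels set side by side between genes compare captured molecules.

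Reg1, Reg3b and Reg3g made up nearly all Reg family RNA, and the other 3 members were close to the detection limit. In the medium tumor Reg1 had 8449 UMIs (416 CPM, 95% interval 407 to 425), Reg3b 6668 (328 CPM, 321 to 336) and Reg3g 4918 (242 CPM, 236 to 249). These intervals do not overlap, so counting error does not blur the order Reg1, Reg3b, Reg3g in this library. In the large tumor Reg3b led with 1035 UMIs (462 CPM, 435 to 491), followed by Reg1 with 912 (407 CPM, 381 to 435) and Reg3g with 234 (105 CPM, 91.5 to 119). Reg1 and Reg3b touched at the edge of their intervals there, and Reg3g was far below both.

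The 3 scarce members had 36 (Reg2), 33 (Reg4) and 9 UMIs (Reg3a) in the medium tumor, and 6, 27 and 6 in the large tumor. Reg2 reached 1.77 CPM in the medium tumor and 2.68 CPM in the large one, with overlapping intervals (1.24 to 2.45 and 0.983 to 5.83). Reg4 was at 1.63 CPM (1.12 to 2.28) in the medium and 12.1 CPM (7.95 to 17.5) in the large tumor, where the intervals are apart. Reg3a was at 0.443 CPM (0.203 to 0.842) against 2.68 CPM (0.983 to 5.83). Against a limit of 3 counts, 0.148 CPM in the medium and 1.34 CPM in the large tumor, all 3 were detected in both.

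Within the medium tumor most Reg RNA was in 2 of the 8 epithelial-like clusters. Cluster 4 (285 cells), led by Tff3, Ly6d, Ly6k, Aadac and Akr1b7, held 48.2% of the summed Reg1, Reg3b and Reg3g UMIs of the tumor in 10.1% of its cells. Tff3 encodes a trefoil peptide of mucous secretions. Cluster 7 (230 cells), led by Dmbt1, a mucosal scavenger receptor, with Lcn2, the siderophore-binding lipocalin, Sftpd, Mmp7 and Pzp, held a further 28.3% in 8.18% of the cells. Both carried 5 of the 6 secretory markers and 3 of the 6 goblet markers of the lists. Of the 12 acinar markers 1 was called in each, and summed acinar marker levels were highest in these clusters, at 396 and 335 CPM. Cluster 1 was at 213 CPM, the unnamed cluster 12 at 192 and every other cluster of this tumor at 30.5 to 77.6. The source of these acinar marker UMIs was not tested.

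Reg1 was at 2632 CPM in cluster 4 (2552 to 2713) and at 1711 CPM in cluster 7 (1642 to 1783). In the other 6 epithelial-like clusters it was at 184 CPM in the gastric pit cluster 1 (led by Gkn1, Gkn3 and Gkn2), 121 in cluster 6 (Krt17, Cldn4), 113 in the cycling cluster 3, 78.1 in cluster 2, 23.9 in cluster 8 and 22.7 in cluster 5. The macrophage-like cluster 9, cells that are not known to make Reg1, was at 50.4 CPM (35.5 to 69.4). Of its 37 UMIs 18 came from 1 cell with 9 epithelial markers, and the level without that cell was 26.1 CPM (15.7 to 40.8). Clusters 5 and 8 lie inside this last interval, and clusters 4 and 7 stood far above every other epithelial-like cluster in the CPM of Reg1.

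Reg3b followed the same order at the top, with 2023 CPM in cluster 4 (1954 to 2094) and 1433 CPM in cluster 7 (1369 to 1499). Among the epithelial-like clusters, cluster 6 came next at 166 CPM (147 to 186), above cluster 1 at 103 (91.6 to 115), which reverses the Reg1 order of these 2 clusters. Reg3g reached 1431 CPM in cluster 4 (1373 to 1491) and 1109 CPM in cluster 7 (1053 to 1167). The next epithelial-like clusters were cluster 6 at 112 CPM (96.6 to 128) and cluster 1 at 84.5 CPM (74.3 to 95.7). Clusters 12 and 14, which are not epithelial-like, were above these 2 for both genes. For both genes clusters 5 and 8 stayed between 14.3 and 23.7 CPM, against 27.2 CPM of Reg3b and 32.7 CPM of Reg3g in macrophage-like cluster 9. Without the same highest cell these were 19.2 CPM (10.5 to 32.3) and 20.6 CPM (11.5 to 34.0).

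**Figure D1:**
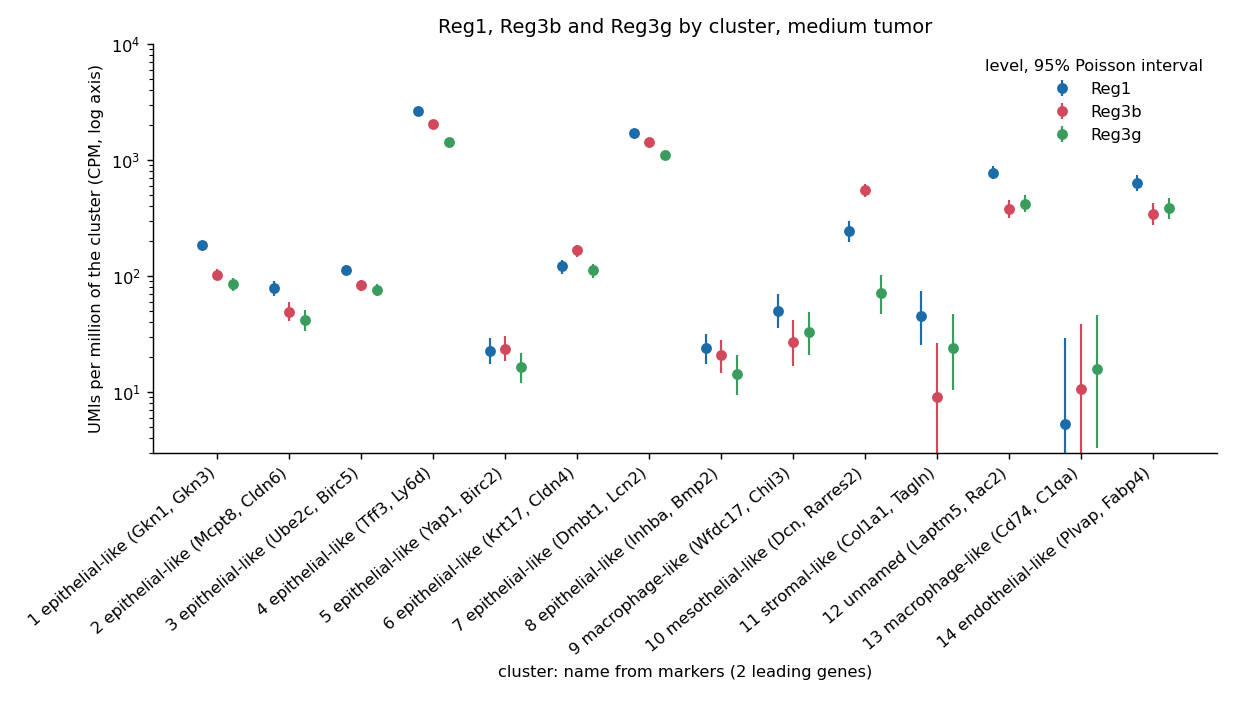
Levels of Reg1, Reg3b and Reg3g in each cluster of the medium tumor, in CPM on a log axis, with 95% Poisson intervals and clusters named from marker lists and their 2 leading genes. All 3 genes lie at 1109 CPM or more in clusters 4 and 7, and at 780 CPM or less in every other cluster.

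Set against the other 6 epithelial-like clusters together, clusters 4 and 7 were 23.4-fold higher for Reg1 (2212 against 94.4 CPM, interval of the ratio 22.1 to 24.8), 24.1-fold for Reg3b (1754 against 72.6 CPM, 22.6 to 25.8) and 22.2-fold for Reg3g (1284 against 57.7 CPM, 20.7 to 24.0). They ranked 6th, 5th and 8th of 7309 genes by this ratio. At least a 4-fold excess was reached by 1.23% of these genes, and by 3 of 3 members with 200 or more UMIs. Since these clusters were picked for their Reg levels, the ratios are a description. Reg2, Reg3a and Reg4, under 200 UMIs, were left out of this ranking.

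The scarce members had their counts in the same clusters for the most part. Cluster 7 held 18 of the 36 Reg2 UMIs, in 9 cells, and cluster 4 a further 7, in 7 cells. Of the 9 Reg3a UMIs, 4 were in cluster 7 and 2 in cluster 4, each in a cell of its own. Reg4 differed, with 14 of 33 UMIs in cluster 7 (11 cells), 12 in cluster 6 and 4 in cluster 4. The Reg4 count in cluster 6 rests on 4 cells, 1 of which gave 9 UMIs.

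Cells within clusters 4 and 7 were far from uniform. The median cell of cluster 4 had 22.8 summed Reg1, Reg3b and Reg3g UMIs per 10000 (quartiles 3.22 and 74.2, maximum 1090), so in the highest cell more than 10% of all captured molecules came from these 3 genes. Cluster 7 had a median of 19.0 per 10000 (quartiles 3.18 and 56.8, maximum 372). All 3 genes were seen in 50.2% of the cells of cluster 4 and 50.4% of cluster 7, and none of the 3 in 17.5% and 15.7%. In each of the other 12 clusters the median cell had 0.

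**Figure D2:**
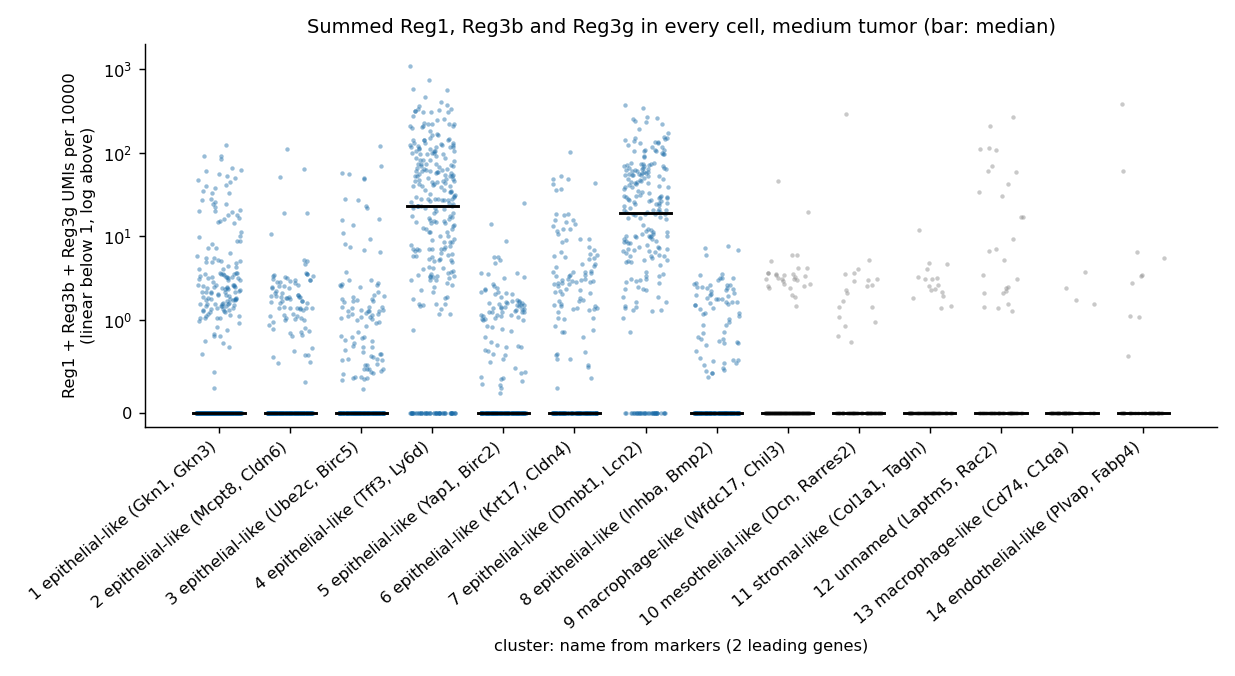
Summed Reg1, Reg3b and Reg3g UMIs per 10000 in every cell of the medium tumor, on an axis that is linear below 1 and logarithmic above, with epithelial-like clusters in blue, other clusters in grey and a bar at the median. Medians are 22.8 in cluster 4 and 19.0 in cluster 7 and 0 elsewhere, and single cells stand far above the rest in clusters 10 and 14.

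The same unevenness showed over all 2328 epithelial-like cells. The 116 cells with the most UMIs of a gene (5%) held 68.8% of Reg1, 72.5% of Reg3b and 65.2% of Reg3g. Over 7309 genes the median was 38.1%, and 21.1% of genes reached 50%, as did 3 of 3 members. Over all 2328 cells the 3 genes had 4623 to 7887 UMIs each.

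The shares of cells with a UMI put the same 2 clusters on top after thinning to 2500 UMIs per cell, a depth that all 2812 cells reached. Reg1 was then seen in 65.6% of cluster 4 (interval 59.8 to 71.1; 70.5% without thinning) and 61.3% of cluster 7 (54.7 to 67.6; 68.7% without thinning). In the macrophage-like cells the thinned share was 5.02% (2.62 to 8.61) and the unthinned share 7.11%, at a median of 3511 UMIs per cell against 4379 and 5216 in clusters 4 and 7. Clusters 2, 5 and 8 had thinned Reg1 shares of 5.90%, 5.66% and 6.14%, inside the macrophage interval, so that these shares did not stand above those of cells not known to make Reg1. The Reg1 CPM of cluster 2 without its highest cell was 50.8 (41.9 to 60.9), above the 26.1 of macrophage-like cluster 9 without its own. The cycling cluster 3 was at 7.14% for Reg1 (4.48 to 10.7), and for Reg3g at 9.52% (6.42 to 13.5) against 4.18% (2.02 to 7.56) in macrophage-like cells. In clusters 2 and 3, whose CPM lay above the macrophage-like cells, the 3 highest cells gave 62.5% and 34.5% of the summed UMIs. Cluster 1, at 14.4% for Reg1 (11.3 to 18.0), lay above the macrophage interval, and so did cluster 6 for Reg3b, at 13.9% (9.78 to 19.0) against 3.77% (1.74 to 7.03) in macrophage-like cells.

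Reg1, Reg3b and Reg3g varied together from cell to cell. Over the 2328 epithelial-like cells Pearson's r of log-scaled counts was 0.79 for Reg1 and Reg3b, 0.78 for Reg1 and Reg3g and 0.78 for Reg3b and Reg3g, and for each of the 3 genes the other 2 were the likest of all genes compared. These cells share 1 library, and the values are a description. With cells thinned to 2500 UMIs the values were 0.74, 0.72 and 0.73. Within cluster 4 alone they lay between 0.70 and 0.78 and within cluster 7 between 0.65 and 0.70.

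After the members themselves, the 5 likest genes of 7309 were taken for each. For Reg1 they were Ly6d (r = 0.59), Dmbt1 (0.58), the matrix metalloproteinase Mmp7 (0.54), Lrg1, which encodes a secreted leucine-rich glycoprotein (0.51), and Pigr, the receptor that carries IgA across epithelia (0.49). For Reg3b they were Lrg1 and Ly6d (both 0.54), Mmp7 (0.53), Dmbt1 (0.49) and Lcn2 (0.45), and for Reg3g Ly6d (0.62), Mmp7 (0.60), Lrg1 (0.59), Dmbt1 (0.57) and Lcn2 (0.52). Ly6d, Dmbt1, Mmp7 and Lrg1 thus stood in all 3 lists. Each of these values was below every value between the abundant members. Within clusters 4 and 7 taken alone the likest genes had r of 0.22 to 0.47, and of the 6 lists of 5 (3 genes in 2 clusters) Lrg1 stood in 5, Dmbt1 and Lcn2 in 4, Mmp7 in 2 and Ly6d in 0.

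Although the 3 genes moved together, cells differed in which one led. Among the 116 cells of cluster 4 with 20 or more summed UMIs, Reg1 was highest in 66, Reg3b in 36 and Reg3g in 14. Among 85 such cells of cluster 7, Reg1 was highest in 38, Reg3b in 29 and Reg3g in 18. Summed over cells the mix was nearly the same in both clusters. Reg1 gave 43.2% of the summed UMIs in cluster 4 and 40.2% in cluster 7, Reg3b 33.2% and 33.7%, and Reg3g 23.5% and 26.1%. Cluster 6 was poorer in Reg1 (30.3%, 26.9 to 33.8) and richer in Reg3b (41.6%, 38.0 to 45.4). Cluster 1 had the highest Reg1 share of the epithelial-like clusters (49.5%, 46.5 to 52.5).

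Epithelial-like cells as a whole exceeded the other cells of the medium tumor by a margin that moved with the setting. Reg1 was at 436 against 253 CPM (ratio 1.72, interval 1.58 to 1.88), Reg3b at 344 against 202 CPM (1.70, 1.55 to 1.88) and Reg3g at 256 against 133 CPM (1.92, 1.71 to 2.17). None of the 3 reached a 2-fold excess, which 11.1% of 7830 genes did. All 3 passed 2-fold, however, under 4 other settings, which were cells classed by their own markers (Reg1 4.47, Reg3b 2.44, Reg3g 3.68), removal of the highest Scrublet doublet scores (2.26, 3.72 and 2.72), removal of the unnamed cluster (2.75, 2.02 and 3.13) and thinning to 2500 UMIs (2.87, 3.50 and 3.09). All 33 UMIs of Reg4 were in epithelial-like cells, which are 82.8% of the cells, and the interval of the Reg4 ratio starts at 1.04. The small ratios rest on few cells outside the epithelial-like clusters. The summed level of the 3 genes was 1036 CPM in epithelial-like and 94.2 CPM in macrophage-like cells, and against the latter alone the ratio was 10.9. A single macrophage-like cell gave 33 of the 87 UMIs there, and without it the level was 58.9 CPM (44.3 to 76.9) and the ratio 17.3.

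The high values elsewhere came from single cells and from 1 mixed cluster. In the mesothelial-like cluster 10 (74 cells, 861 CPM summed) 1 cell gave 315 of 337 UMIs, and the level without it was 57.8 CPM. That cell had 9 of the 11 epithelial markers, where the median cell of its cluster had 3.00. In the endothelial-like cluster 14 (38 cells, 1363 CPM) 1 cell with 10 epithelial markers gave 255 of 321 UMIs, and the level without it was 288 CPM. Another cell there, with 9 epithelial markers, gave 51 of the remaining 66 UMIs, and without both the level was 68.0 CPM (38.0 to 112). The unnamed cluster 12 (66 cells, 1578 CPM) had 10 of 11 epithelial and 9 of 11 monocyte/macrophage markers, and 10 of its cells had 10 or more UMIs of the 3 genes. Scrublet called no doublet in this tumor, and whether these barcodes hold more than 1 cell was not tested further.

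In the large tumor most UMIs of the 3 genes were again in a few epithelial-like clusters, but the leading member differed between them. Reg1 led in cluster 4 (208 cells), which is led by Fabp1, the fatty acid-binding protein of enterocytes, and carried 9 of the 11 enterocyte markers. There Reg1 was at 3427 CPM (3170 to 3699), Reg3b at 1277 (1123 to 1447) and Reg3g at 379 (297 to 477). Reg1 was seen in 49.0% of these cells at 500 UMIs per cell (42.1 to 56.0; 58.7% unthinned), against 1.19% (0.245 to 3.43; 1.98% unthinned) in macrophage-like cells, at median depths of 825 and 688 UMIs. Whether cluster 4, or the goblet-marker cluster 8, belongs to the carcinoma or to adjoining gut was not tested.

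By CPM, Reg3b led in clusters 7 and 8. Cluster 7 (104 cells), led by Lgals2, Dmbt1 and Agr2, had Reg3b at 1380 CPM (1185 to 1597), Reg3g at 439 (333 to 569) and Reg1 at 162 (100 to 247). Cluster 8 (57 cells) carried 6 of 6 goblet and 6 of 11 enterocyte markers and is led by Zg16 and Tff3. Its Reg3b level of 5475 CPM (4863 to 6143) was the highest of any member in any cluster of either tumor. However, 1 cell gave 159 of its 290 Reg3b UMIs. Without that cell the level was 2519 CPM (2106 to 2990), below Reg1 in large-tumor cluster 4 without its own highest cell (3174 CPM). Reg3g in cluster 8 fell from 1265 to 288 CPM when its own highest cell was left out. The 3 highest cells of cluster 8 gave 81.0% of the summed UMIs, and 70.2% of its cells had none of the 3 genes. Reg1 was seen in more of its cells (15) than Reg3b (11).

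Reg3g was nearly alone in cluster 10, whose 17 cells are led by the urothelial gene Upk3a with Sprr2f, Ly6d and Krt15. Of 20 summed UMIs, 19 were Reg3g, in 8 of the 17 cells with at most 7 in 1 cell, 1 was Reg3b and none was Reg1. The Reg3g level was 1024 CPM (617 to 1599), and for Reg1, with 0 UMIs, the limit of 3 counts is 162 CPM. This was the 1 cluster of either tumor with 20 or more summed UMIs in which Reg3g gave over 50% of them.

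**Figure D3:**
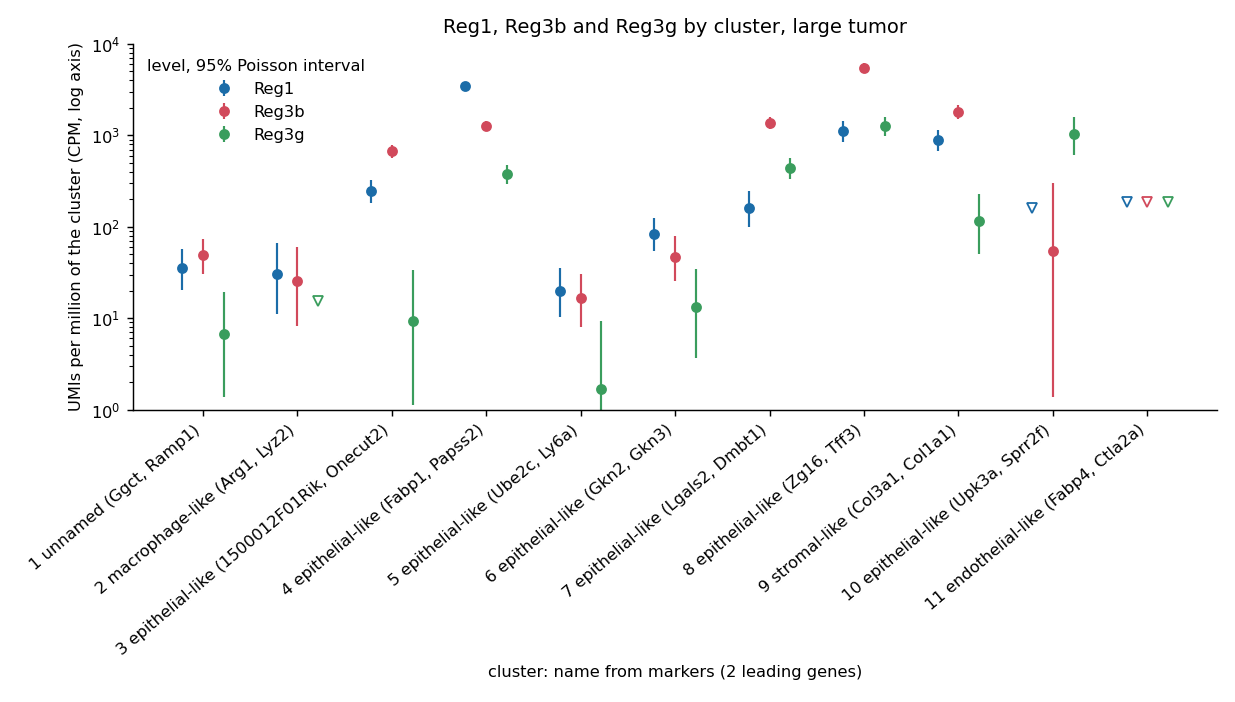
Levels of Reg1, Reg3b and Reg3g in each cluster of the large tumor, in CPM on a log axis, with 95% Poisson intervals and open triangles at the limit of 3 counts where no UMI was seen. Reg1 leads in cluster 4, Reg3b in clusters 7 and 8 and Reg3g in cluster 10.

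The remaining large-tumor clusters were low or rested on single cells. The cycling cluster 5 (186 cells) had 38.4 CPM of the 3 genes summed (24.3 to 57.6), the gastric pit cluster 6 (143 cells) 144 CPM (105 to 195), the unnamed cluster 1 (281 cells, led by Ggct and Ramp1) 90.6 CPM (65.0 to 123) and the macrophage-like cluster 2 56.1 CPM (28.0 to 100). In cluster 3 (223 cells, 924 CPM) the 3 highest cells gave 91.5% of the UMIs. The stromal-like cluster 9 had 192 UMIs, of which 185 came from 1 cell.

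That stromal-like barcode stood apart. Of its 1356 UMIs, 124 were Reg3b, 55 Reg1 and 6 Reg3g, and 67 were acinar markers, among them the digestive protease genes Ctrb1 (30), Prss2 (28) and Cela3b (6). It alone held 45.6% of the acinar marker UMIs of the large tumor. It also held 20 UMIs of 4 stromal markers. Its cluster held 2 of the 6 Reg2 UMIs of this tumor, both in 1 cell. No other cell outside the epithelial-like clusters of either tumor combined 10 or more Reg UMIs with more than 1 acinar marker.

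Reg4 in the large tumor was in the goblet and Dmbt1 clusters, with 12 UMIs in cluster 8 (227 CPM, 117 to 396, 5 cells) and 12 in cluster 7 (92.5 CPM, 47.8 to 162, 4 cells), which is 24 of 27. Of the 6 Reg3a UMIs, 5 were in the enterocyte-marker cluster 4 (26.0 CPM, 8.43 to 60.6, 4 cells). These are counts of a few cells each. Reg4 was above the medium tumor's highest cluster, cluster 7 at 10.5 CPM (5.74 to 17.6), in both large-tumor clusters. In cluster 7 a single cell gave 7 of the 12 UMIs, and without it the level was 38.9 CPM (12.6 to 90.7), which overlaps the medium tumor's interval, while cluster 8 without its highest cell was at 173 CPM (79.0 to 328).

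The mix of members therefore varied more between clusters of the large tumor than between those of the medium tumor. Among large-tumor clusters with 200 or more summed UMIs, the Reg1 share ran from 8.17% (cluster 7, 5.13 to 12.2) and 14.2% (cluster 8, 11.0 to 17.9) to 67.4% (cluster 4, 64.4 to 70.3). Leaving out the highest cell of each of these clusters gave 9.74%, 25.5% and 65.9%. In epithelial-like clusters of the medium tumor with as many UMIs it ran from 30.3% to 49.5%. Dmbt1 was among the leading genes of cluster 7 in each tumor, and these 2 clusters differed in mix, with 40.2% Reg1 and 33.7% Reg3b in the medium against 8.17% and 69.6% in the large tumor.

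**Figure D4:**
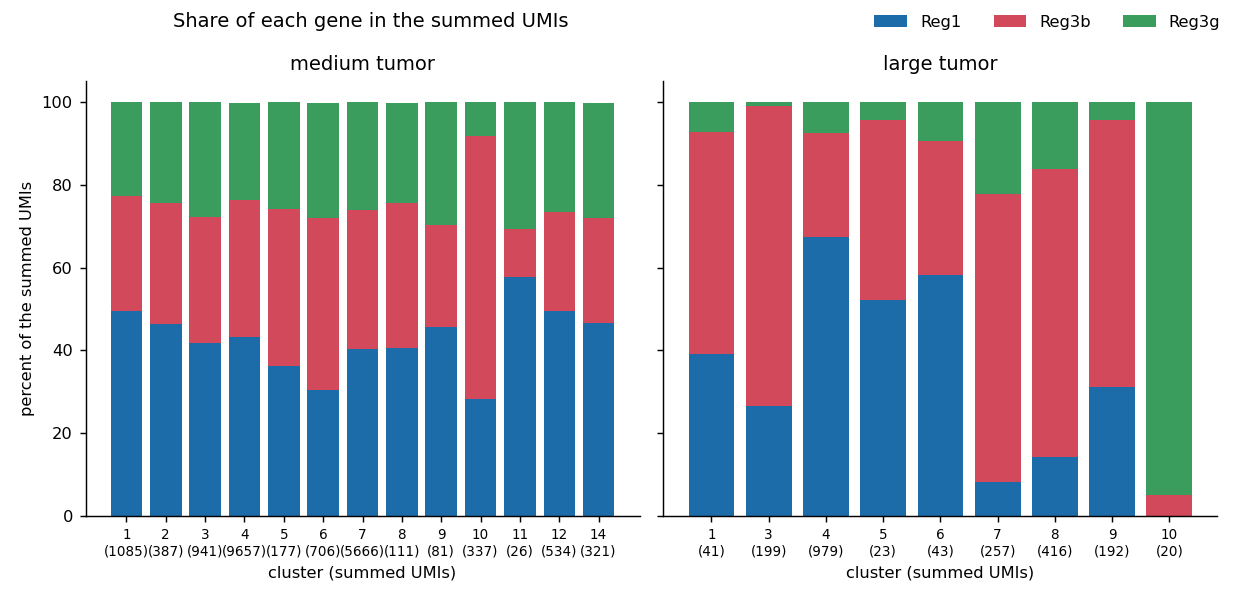
Share of Reg1, Reg3b and Reg3g in their summed UMIs for every cluster with 20 or more such UMIs, with the UMI number under each bar. Reg1 gives 30.3% to 49.5% in the medium tumor's epithelial-like clusters of 200 or more UMIs, while large-tumor clusters 4, 7 and 10 are dominated by Reg1, Reg3b and Reg3g in turn.

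Between the tumors' epithelial-like cells, all clusters included, Reg3b and Reg1 were higher and Reg3g lower in the large tumor. Reg3b was at 587 CPM in the large and 344 in the medium tumor (ratio 1.71, interval 1.59 to 1.83), Reg1 at 551 and 436 CPM (1.26, 1.17 to 1.36) and Reg3g at 148 and 256 CPM (0.582, 0.504 to 0.663). None was 4-fold higher, which 0.939% of 7564 genes were, and none was 4-fold lower, which 4.26% were. These directions depended on which cells entered. Without large-tumor clusters 4 and 8, which carry enterocyte and goblet markers, a setting added after seeing the data, Reg3b was at 276 CPM (ratio 0.805, 0.718 to 0.894), Reg1 at 88.1 CPM (0.204, 0.166 to 0.243) and Reg3g at 65.8 CPM (0.261, 0.205 to 0.320), so that all 3 were lower in the large tumor and Reg1 past 4-fold. The log2 ratio of Reg1, 0.34, also turned to between -0.03 and -0.01 under 5 other settings, among them cells classed by their own markers and all cells. Reg3b stayed above the medium tumor under every setting but the one without clusters 4 and 8, and Reg3g below it under all settings tried. Most of the UMIs are in different clusters, 4 and 7 in the medium and 4 and 8 in the large tumor. With 1 animal per size, tumor size, animal and library depth cannot be told apart. The labels also give the libraries different codes (PA_SCS for the medium and PA_Whole for the large tumor) without saying what these mean, so a difference in cell preparation cannot be told apart either.

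The gastric pit and the cycling clusters were lower in the large tumor. The gastric pit clusters, each with 5 of 6 markers, had 371 CPM summed in the medium (349 to 394) and 144 CPM in the large tumor (105 to 195). The cycling clusters had 272 CPM (255 to 290) and 38.4 CPM (24.3 to 57.6). Median depth differed too, at 5442.0 and 1916.0 UMIs per cell in the gastric pit clusters and 9742.0 and 2443.5 in the cycling clusters of the medium and the large tumor, and its part in these differences was not tested.

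The pathway genes that accompany the Reg family were read from lists of 38 further genes, of which 19 had the 200 UMIs needed among the medium tumor's epithelial-like cells. Between clusters 4 and 7 and the other epithelial-like clusters, 7 of 19 were at least 2-fold higher, as were 6.05% of all 7309 genes, and 1 of 19 was at least 2-fold lower, as were 7.83%. The median ratio was 1.39 against 0.941 over all genes. Mucosal defense genes gave 5 of the 7. Since these clusters were picked for their Reg levels, and Pigr and Lcn2 are among the leading genes of cluster 7, the counts are a description. Pigr was 15.8-fold higher (308 against 19.5 CPM) and Lcn2 9.34-fold (1793 against 192 CPM). Duox2, an oxidase that makes hydrogen peroxide at mucosal surfaces, was 7.70-fold higher (142 against 18.4 CPM) and its maturation factor Duoxa2 5.01-fold (156 against 31.2 CPM). S100a9, a subunit of calprotectin known from granulocytes, was 2.30-fold higher (75.4 against 32.9 CPM), with 110 CPM in the cells that were not epithelial-like. The acute-phase gene Saa3 was the 1 measured gene of the lists that was at least 2-fold lower, at 17.8 against 36.5 CPM (ratio 0.497).

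Among the signal transducers Socs3, the feedback inhibitor that Stat3 induces, was 2.37-fold higher (143 against 60.1 CPM) and Stat3 itself 2.01-fold (122 against 60.9 CPM). Jak1 had a ratio of 1.51 and Jak2 of 0.838. The 6 cytokine receptors measured, Il10rb, Il6st, Il11ra1, Osmr, Lifr and Il17rc, had ratios between 1.03 and 1.23. Extl3, the proposed receptor for Reg proteins, had a ratio of 0.759.

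**Figure D5:**
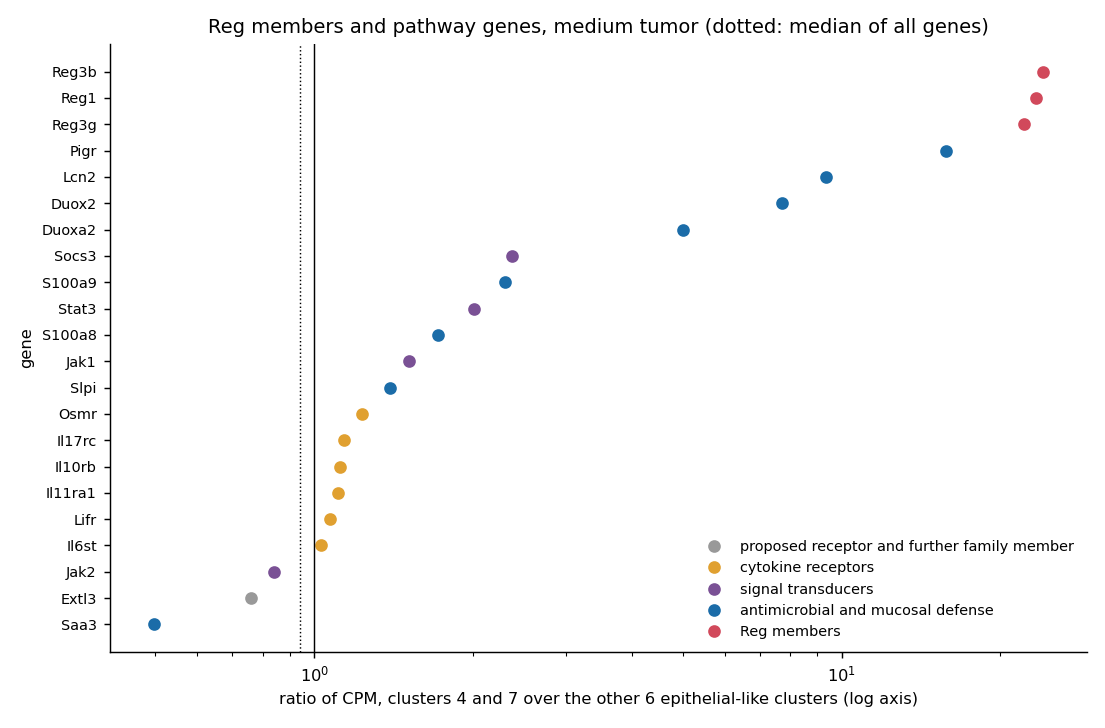
Ratio of CPM between clusters 4 and 7 and the other 6 epithelial-like clusters of the medium tumor, on a log axis, for the 3 abundant Reg genes and the 19 list genes with 200 or more UMIs, with the dotted line at the median of all genes. Reg genes lie between 22.2 and 24.1, followed by Pigr, Lcn2, Duox2 and Duoxa2, and receptors lie near 1.

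The cytokine genes Il6, Osm and Il11 had lower levels in epithelial-like cells than in the other cells of the medium tumor. Il6 was at 93.6 CPM in the other cells and 1.71 CPM in epithelial-like cells (ratio 0.0188), Osm at 173 and 4.15 CPM (0.0243) and Il11 at 44.1 and 6.03 CPM (0.136). Lif, with under 200 UMIs and so no ratio, was at 20.7 and 5.03 CPM. Il11ra1, a receptor gene, was also lower in epithelial-like cells (0.165), as were Saa3 (0.0190) and Slpi (0.0492), a protease inhibitor. These are the 6 of 24 measured list genes that were at least 4-fold lower, against 3.60% of 7830 genes, and 0 of 24 were 4-fold higher, against 1.88%. Il22 had 0 UMIs in the medium tumor, for which the limit of 3 counts is 0.148 CPM, and its receptor gene Il22ra1 had 9 in the epithelial-like cells (0.498 CPM).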

How the data were processed

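The 2 tables hold UMI counts per gene symbol and cell barcode, which the authors made with Cell Ranger on mm10 (per the labels, no version given) and deposited without normalization, 1 table per tumor. All barcodes were kept (2812 and 1533). Each tumor was clustered with Seurat 5.3.0 in R 4.3.3 (scaling to 10000, 2000 vst variable genes without the Reg members, 10 components, resolution 0.8). A cluster took the name of a list with 3 or more markers seen in at least 10% of its cells at 25% or more of the highest cluster's level, and none if another class reached 60% of its markers. Scrublet (scanpy 1.11.5) called 0 and 9 doublets, and no cell was removed. CPM, ratios (1 UMI added to each sum, genes with 200 or more UMIs), exact Poisson and binomial 95% intervals and correlations used Python 3.11.15, numpy 2.4.6 and scipy 1.17.1, and TMM scaling edgeR 4.0.16. Ratio steps were tested on simulated data. No p-value was computed, since each size is 1 tumor.

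Named genes are the 6 members, the 5 likest genes of each member with 200 or more UMIs, the 5 leading genes of the clusters where a member is highest, and list genes past 4-fold between epithelial-like and other cells. Reg3d, other cluster-leading genes, other list genes and the acinar genes of 1 cell were named after their values were seen. The members and lists were chosen with earlier results of these data known. The alternatives were other clusterings, classing of cells by their own markers, removal of high doublet scores, thinning, other scaling and another filter. Protein sequences were not used here. The engineered alleles of the mouse model are not reported here.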

Additional observations from a re-analysis of the deposited data

How the results depend on the processing

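No paired analysis was possible because the replicate numbers in the labels are technical replicates pooled in 1 table per tumor, and for the same reason no replicate could be left out. Values follow for Reg1, Reg3b and Reg3g together unless a gene is named, and the cause of each change was not tested unless stated. The epithelial-like to other ratio of the medium tumor was 1.76, and 3.38 with cells classed by their own markers, 2.74 without the highest 5% of Scrublet scores, 2.53 without the unnamed cluster, 3.12 thinned to 2500 UMIs and, in a comparison chosen after seeing the data, 10.9 against macrophage-like cells alone and 17.3 without their highest cell. The highest cluster held 51.6% of the epithelial-like UMIs, and 54.6% with Reg genes among the variable genes, 55.1% with 20 components, 54.0% without high Scrublet scores and 58.3% thinned. It held 82.3% at resolution 0.4, where 6 epithelial-like clusters remained, and 38.4% at resolution 1.2, with 11. The 2 highest clusters, also added after seeing the data, held 81.8%, and 83.4%, 84.1%, 86.0%, 87.8%, 86.1% and 70.9% in the same order.

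The log2 ratio of large over medium epithelial-like cells was 0.31, 0.39 with TMM scaling and 0.06 at resolution 1.2, and turned to -0.04 with Reg genes among the variable genes, at resolution 0.4 and with 20 components, and to -0.02 with cells classed by their own markers and over all cells. Without large-tumor clusters 4 and 8, chosen after seeing the data, it was -1.27, with -2.30 for Reg1 and -0.31 for Reg3b (0.77 with them). For Reg1 it was 0.34 and turned to -0.02 with Reg genes among the variable genes or 20 components, -0.01 at resolution 0.4 or by own markers and -0.03 over all cells. In the 3 reclusterings the 281 cells of the unnamed cluster joined the epithelial-like class, which then had 1219 cells. A filter of 50 UMIs in place of 200 raised the number of genes past 4-fold from 71 to 170 higher and from 322 to 600 lower. Counts scaled to 10000 per cell gave 70.3% of Reg1 and 67.3% of Reg3g in 5% of cells. Of the other alternative values, 28 stayed within the counting interval or limit set for them, and 49 values of single genes moved beyond it without a change of direction. The large tumor's depth limits its values, where 3 counts are 1.34 CPM.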

Other observations

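Some mucosal defense genes that accompanied the Reg genes in the medium tumor stood at other levels in the epithelial-like cells of the large tumor, where each size is 1 tumor and no test was made. Pigr was at 187 CPM in the large and 66.1 CPM in the medium tumor, and S100a9, known from granulocytes, at 277 and 39.8 CPM. The 8 granulocyte markers, S100a9 among them, summed to 396 to 1586 CPM in the epithelial-like clusters of the large tumor and 44.0 to 233 CPM in those of the medium tumor, and 8288 CPM in the large tumor's macrophage-like cluster 2, and their part in this difference was not tested. Lcn2 was at 25.2 CPM against 450, Duox2 at 10.6 against 38.3 and Duoxa2 at 28.6 against 51.4. The cytokine gene Lif was at 32.5 CPM in the large and 5.03 CPM in the medium tumor's epithelial-like cells. Retnlb, a goblet cell gene, had 8 UMIs in the large and 0 in the medium tumor's epithelial-like cells.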
